A study of Homo sapiens with 18 samples.

Results

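The nuclear genes for the respiratory chain were followed in RNA-seq of C4-2B cells, an androgen-independent prostate cancer line derived from LNCaP. The members were chosen by name: genes whose symbols begin with NDUFA, NDUFB, NDUFC, NDUFS or NDUFV and a number, UQCR or ATP5, the genes SDHA to SDHD and CYC1, and the COX4I, COX5, COX6, COX7 and COX8 genes, without 2 pseudogene names that match. This gave 92 of the 26475 genes in the FPKM tables. Of these, 81 were counted as subunits, 36 of complex I, 4 of complex II, 9 of complex III, 17 of complex IV and 15 of complex V. The remaining 11 were antisense and read-through transcripts and relatives that are not subunits.

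All cells were wild-type C4-2B grown in RPMI with 10% fetal bovine serum, and 3 libraries of polyadenylated RNA were made for each of 6 groups. After 2 days there was a DMSO vehicle group and a group given 0.1 µM VIC-1911, an inhibitor of the mitotic kinase Aurora A. After 7 days there were vehicle, 0.1 µM VIC-1911, 1 µM olaparib, which inhibits the DNA repair enzyme PARP, and both drugs together at these doses. All groups come from 1 cell line, and the labels do not say that the 3 libraries of a group came from separate cultures. The p-values therefore measure the spread between these libraries, which may be technical. In bulk RNA, fewer cells with a transcript and less of it per cell cannot be told apart.

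The respiratory chain sits in the inner mitochondrial membrane. Complex I takes electrons from NADH and complex II, which is also the succinate dehydrogenase of the citric acid cycle, takes them from succinate. Complex III passes them by way of cytochrome c to complex IV, which reduces oxygen, and complex V, the ATP synthase, uses the proton gradient that complexes I, III and IV build. Most subunits are encoded in the nucleus, translated in the cytosol and imported, whereas a small core is encoded by mitochondrial DNA and is not analysed here. Complex II has nuclear-encoded subunits only. Prostate epithelium is known for low citrate oxidation, which increases when the epithelium becomes malignant.

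Library totals ranged from 3245273 to 7184420 counts at 2 days and from 4967931 to 19684208 at 7 days. At 2 days depth moved with the group, with 3245273 to 4545256 counts in the vehicle libraries and 5107326 to 7184420 in the VIC-1911 libraries. The shallowest 7-day library, olaparib replicate 1, stood apart on the third principal component at -36.2, with the others between -1.26 and 8.65. By the library numbers in the sample records, vehicle and VIC-1911 of 7 days fall in one consecutive range and olaparib and the combination in another. The labels used here name no batch. A difference between these number ranges and a difference with olaparib cannot be told apart. The groups set against each other for VIC-1911 alone lie within a number range, and so do olaparib and the combination. The luminal marker KLK3 had mean values of 1313 to 2681 FPKM over the 6 groups, and of 12 markers of basal, stromal, immune and endothelial cells 4 had enough counts to be tested at 7 days. The basal KRT5, stromal DCN and T-cell CD3E were at 0 in every group. The basal KRT14 had means of 0.105 to 2.61 FPKM and was called against vehicle at 7 days in all 3 treatments (-0.58 with VIC-1911, 0.58 with olaparib and 0.80 with the combination). The stromal COL1A1 had means of 1.19 to 2.07 FPKM and was called with VIC-1911 at 2 days (-0.49), with olaparib (0.28) and with the combination (0.43), COL3A1, at up to 0.178 FPKM, with the combination (1.28), and the endothelial VWF, at up to 0.693 FPKM, with olaparib (-1.19) and the combination (-1.22). The part of these markers in the subunit values was not tested.

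The subunits took 1.42 to 1.51% of all counts in the vehicle libraries of 2 days and 1.06 to 1.13% in those of 7 days. With VIC-1911 they took 1.48 to 1.52% at 2 days and 1.28 to 1.34% at 7 days. Olaparib libraries held 1.20 to 1.23% and combination libraries 1.18 to 1.3%. At 7 days every treated library was thus above every vehicle library in this share of counts. The summed FPKM of all subunits overlapped with vehicle for olaparib (6.89% higher) and the combination (8.67% higher). With VIC-1911 at 7 days it was 19.1% higher without overlap.

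Levels between genes are compared per length, in FPKM. COX7C, a small subunit of cytochrome c oxidase, was the highest member of complex IV, with 582, 526 and 571 FPKM in the 7-day vehicle libraries, and the catalytic beta subunit ATP5B (now ATP5F1B) was the highest of complex V, with 558, 511 and 502 FPKM. NDUFB10 of the membrane arm led complex I at 253, 244 and 235 FPKM, and UQCRH, the hinge protein, led complex III at 230, 214 and 203 FPKM. UQCRH shares nearly its whole sequence with UQCRHL, so reads of this pair may have been divided between them. Complex II was the least abundant per gene, and SDHA, its flavoprotein, was the highest of its 4 members at 49.3, 46.9 and 47.7 FPKM.

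Tissue-restricted isoforms of complex IV were at or near 0. COX4I2 was listed at 0 FPKM in all 18 libraries. COX6A2, COX6B2, COX7A1 and COX8C had at most 12 counts in any library and none of them was tested. COX7B2 was the exception among these isoforms, with 3.78 to 8.77 FPKM, and it was not called in any comparison. ATP5E (now ATP5F1E), the epsilon subunit, had 0 to 16 counts per library, so its values rest on few reads. It overlaps the read-through gene SLMO2-ATP5E and TUBB1 in the genome, and the part of this overlap in its low counts was not tested. Another annotated gene overlaps 32 of the 81 subunits, among them ATP5B, UQCRC2, ATP5G1 and ATP5J2. The part of such overlap in their values was not tested either. Of the 81 subunits, 75 could be tested at 2 days and 76 at 7 days, among them 12 of the 17 members of complex IV.

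**Figure D1:**
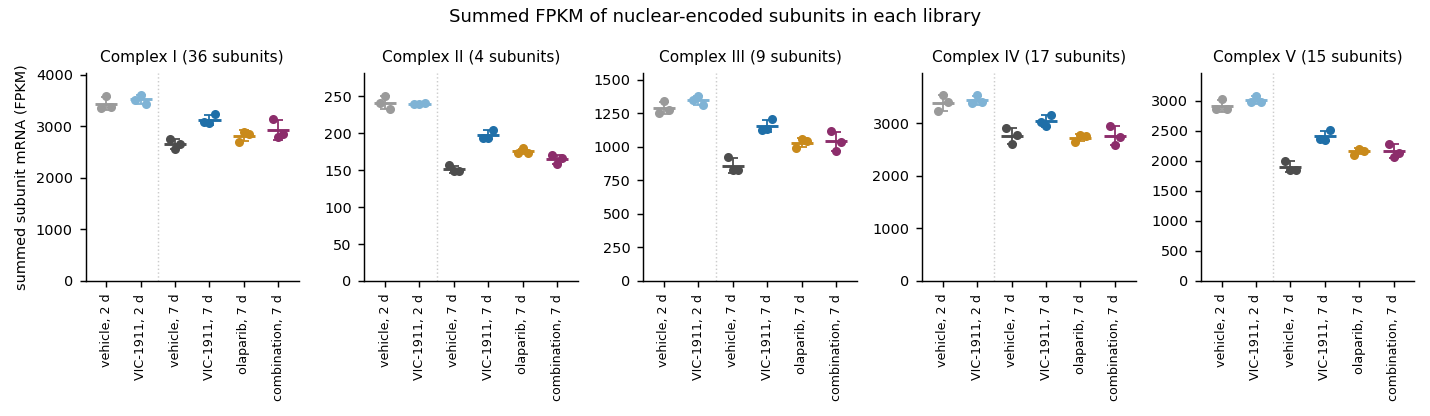
Summed FPKM of the nuclear-encoded subunits of each complex, with 1 panel per complex, 1 point per library, the mean as a line and the SD of 3 libraries as the error bar in each of the 6 groups. At 7 days the VIC-1911 libraries lie above the vehicle libraries in every panel. The olaparib libraries overlap with vehicle in complexes I and IV, and the combination libraries overlap with it in complex IV.

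For 66 of the 81 subunits RefSeq (GRCh38.p14) gave a promoter window of 250 bases before to 50 bases after the start of the gene. The palindrome to which nuclear respiratory factor NRF1 binds, searched as the letters in capitals in the SDHD NRF1 and NDUFB4 sequences below, was found in 4 of these 66 windows (6.06%) and in 371 of 27305 windows of all genes (1.36%). The letters CCGGAAGT, a core recognized by ETS factors such as GABPA, were found on either strand in 9 of 66 windows (13.6%) and in 1211 of all (4.44%). The motifs share no bases in the windows shown. The sequences below are shown because they belong to subunits that rose and subunits that fell in the comparisons that follow, with the motif in capitals and 10 bases to each side.

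SDHD NRF1, chr11:112086753-112086782, plus strand: agctgtgtttGCGCATGCGCgacgggtgtg
SDHD ETS, chr11:112086785-112086812, plus strand: ccgcctctcgACTTCCGGttcacccagc
NDUFB4 NRF1, chr3:120596167-120596196, plus strand: agagcacttcGCGCATGCGCatatcaccga
UQCRH ETS, chr1:46303641-46303668, plus strand: agtgtgccgcACTTCCGGccagatcgcc
COX5B ETS, chr2:97646015-97646042, plus strand: aagcccgcccCCGGAAGTccctcctgtc
NDUFS1 ETS, chr2:206159585-206159612, minus strand: ggctggggccACTTCCGGcggaactgcg

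SDHD was the one of the 3 complex II genes with a window that matched either motif, and it held both within 1 window, with the first base of the NRF1 palindrome at -110 and that of the ETS core at -78 from the start. In NDUFB4 the palindrome began at -159. A match is a description of the letters, and binding was not measured.

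The first comparison asked what VIC-1911 alone does to these transcripts early, after 2 days. Of 81 members tested, 4 rose and 2 fell at an adjusted p under 0.05 (edgeR quasi-likelihood test, Benjamini-Hochberg adjustment over 12241 genes), where 7.50% of all tested genes were called higher and 7.19% lower. The median log2 fold change of the subunits was 0.05, with 0.00 over all tested genes. NDUFB4, an accessory subunit of the complex I membrane arm, had 187, 190 and 191 FPKM with vehicle and 225, 221 and 216 with VIC-1911. Its groups did not overlap, and it rose by 0.23 ± 0.05 (log2 fold change ± SE, adjusted p = 0.00039). In complex III, UQCRB (0.19 ± 0.05, adjusted p = 0.00994) and UQCRC2 (0.17 ± 0.05, adjusted p = 0.0129) rose as well. The subunit that fell was NDUFB9 (-0.15 ± 0.05, adjusted p = 0.0352).

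NDUFB4 was the only one of the 4 rises that was called whichever library was left out. UQCRC2 was not called without vehicle replicate 3 (0.15) or VIC-1911 replicate 2 (0.14), and UQCRB not without vehicle replicate 3 (0.17) or VIC-1911 replicate 1 (0.16). NDUFB9 was not called without vehicle replicate 1 or 3 (-0.14 each) or any VIC-1911 replicate (-0.16 to -0.14), nor by DESeq2. Members called higher numbered 15 without vehicle replicate 2, 1 without vehicle replicate 3 and 2 without VIC-1911 replicate 2. In complexes II, IV and V edgeR and DESeq2 each called 0 subunits at 2 days. At an unadjusted p under 0.05 edgeR counted 0 in complex II, 3 higher and 2 lower in complex IV, and 3 higher in complex V. The summed FPKM of every complex overlapped between vehicle and VIC-1911, with changes of -0.640% for complex II to 4.32% for complex III.

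After 7 days of VIC-1911 alone, subunits of every complex rose. Of 84 members tested, 55 rose and 4 fell, where 26.6% of the 14409 tested genes rose and 25.8% fell. Counting subunits only, 54 of 76 rose and 2 fell, and their median log2 fold change was 0.24, with -0.01 over all tested genes. The FPKM values of the 2 groups did not overlap for 59 subunits in the upward direction and for 2 in the downward direction, with 33.9% and 25.4% over all genes. The largest rise of a subunit was 0.64 on the log2 scale and the largest fall -0.28.

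**Figure D2:**
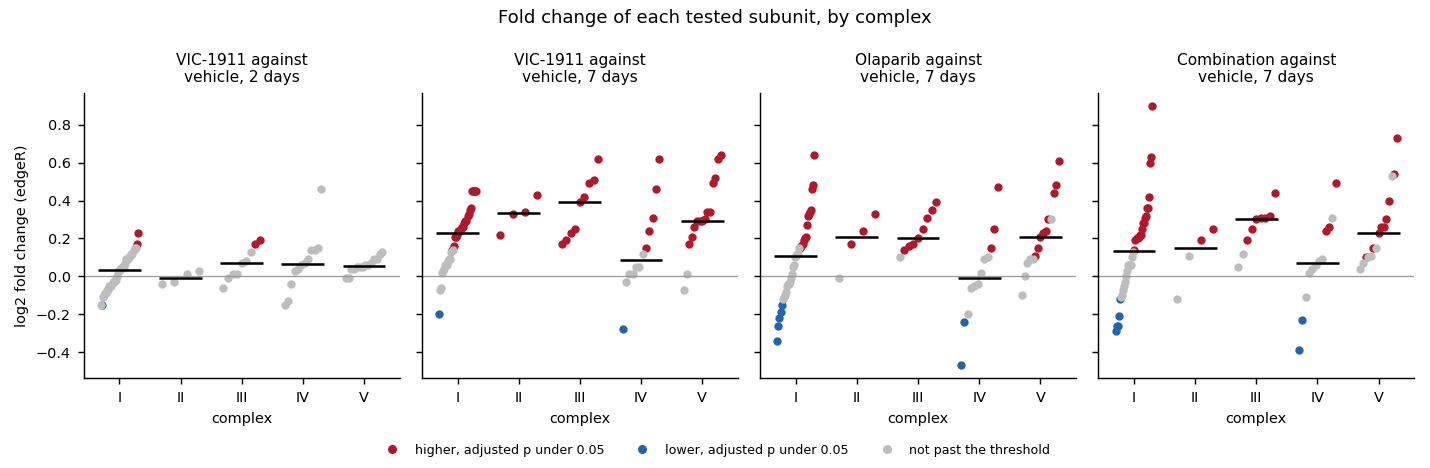
Log2 fold change against vehicle (edgeR) of each tested subunit by complex, 1 panel per comparison, in red where called higher and blue where called lower at an adjusted p under 0.05, in grey otherwise, with a bar at the median of each complex. With VIC-1911 at 7 days the medians run from 0.08 in complex IV to 0.39 in complex III, and at 2 days from -0.01 to 0.07.

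All 9 subunits of complex III rose after 7 days of VIC-1911, with a median of 0.39. UQCR10 (chr22:29767369-29770413), a small accessory subunit, had 56.9, 51.3 and 46.7 FPKM with vehicle and 82.3, 77.0 and 88.3 with VIC-1911. It rose by 0.62 ± 0.06 (adjusted p = 2.4e-09) without overlap. UQCRC2, a core protein, went from 81.6, 73.4 and 70.7 to 109, 109 and 111 FPKM, a rise of 0.49 ± 0.05 (adjusted p = 2.1e-10). UQCRH rose by 0.42 ± 0.05 (adjusted p = 1.5e-07). The summed FPKM of complex III was 861.1 ± 57.8 (SD, n = 3) with vehicle and 1156 ± 42.3 with VIC-1911, which is 34.2% higher, and its libraries did not overlap.

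All 4 subunits of complex II rose as well. SDHD (chr11:112086873-112095794), a membrane anchor, had 37.1, 38.0 and 36.3 FPKM with vehicle and 50.5, 51.2 and 53.5 with VIC-1911, a rise of 0.43 ± 0.05 (adjusted p = 1.6e-08). SDHB, the iron-sulfur subunit, had 41.5, 35.4 and 39.9 against 51.9, 45.9 and 53.8 FPKM, a rise of 0.34 ± 0.07 (adjusted p = 9.2e-05). The groups of both genes did not overlap. SDHA rose by 0.33 ± 0.05 (adjusted p = 6.1e-07) and SDHC, the other anchor, by 0.22 ± 0.06 (adjusted p = 0.00136). The summed level went from 151.4 ± 4.58 to 197.8 ± 6.17 FPKM (SD, n = 3), 30.7% higher.

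In complex V 13 of the 15 tested subunits rose and none fell, with a median of 0.29. The c subunit, which forms the rotor ring, is encoded by a set of genes that give the same mature protein, and these differed in their values. ATP5G1 (now ATP5MC1, chr17:48892787-48895871) had 89.0, 72.4 and 78.3 FPKM with vehicle and 128, 126 and 132 with VIC-1911, a rise of 0.64 ± 0.07 (adjusted p = 2.2e-09). ATP5G3 (now ATP5MC3) went from 33.9, 31.1 and 30.7 to 51.3, 49.3 and 52.0 FPKM, a rise of 0.62 ± 0.05 (adjusted p = 1.6e-11). ATP5G2 (now ATP5MC2) stayed apart from them with 99.5, 97.9 and 94.7 FPKM in vehicle and 93.8, 92.3 and 101 in VIC-1911, which overlap, and it was not called (-0.07 ± 0.05, adjusted p = 0.189). The difference between the c subunit genes was not tested. ATP5B rose by 0.29 ± 0.04 (adjusted p = 7.5e-07), and the summed level of the complex rose from 1899 ± 88.6 to 2409 ± 85.5 FPKM, 26.9% higher.

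In complex I 23 of 36 subunits rose and 1 fell, with a median of 0.23. By position in the complex, 8 of 9 subunits of the NADH-oxidizing N module rose, 4 of 7 of the ubiquinone-reducing Q module and 11 of 20 of the membrane arm. NDUFS5 rose by 0.45 ± 0.05 (adjusted p = 2.4e-08), NDUFB4 by 0.45 ± 0.05 (adjusted p = 5.6e-08) and NDUFB2 by 0.45 ± 0.09 (adjusted p = 5.4e-05), all accessory subunits of the membrane arm. The one subunit that fell was NDUFA13, also known as GRIM-19, with 241, 230 and 257 FPKM in vehicle and 211, 217 and 225 in VIC-1911 (-0.20 ± 0.06, adjusted p = 0.00475). Its groups did not overlap, but limma on the FPKM values did not call it (-0.16). The summed FPKM was 2661 ± 99.2 in vehicle and 3125 ± 93.6 in VIC-1911, 17.4% higher.

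Complex IV had the smallest share of called subunits, with 5 of 12 higher, 1 lower and a median of 0.08. COX6B1 (chr19:35648323-35658782), which faces the intermembrane space, had 164, 151 and 152 FPKM with vehicle and 239, 242 and 263 with VIC-1911, a rise of 0.62 ± 0.05 (adjusted p = 2.1e-11). COX7B rose by 0.46 ± 0.06 (adjusted p = 3.5e-08). COX6A1 (chr12:120438113-120440730), the ubiquitous isoform of subunit VIa, went the other way, from 555, 475 and 554 to 453, 437 and 452 FPKM, and it fell by 0.28 ± 0.05 on the log2 scale (adjusted p = 3.5e-05). The groups of each of these genes were apart. The summed FPKM was 2758 ± 151 in vehicle and 3038 ± 108 in VIC-1911, 10.2% higher without overlap. Differences between complexes were not tested. The number of subunits called higher in each complex stayed within 1.5 times these counts under every alternative run, including without each library.

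**Figure D3:**
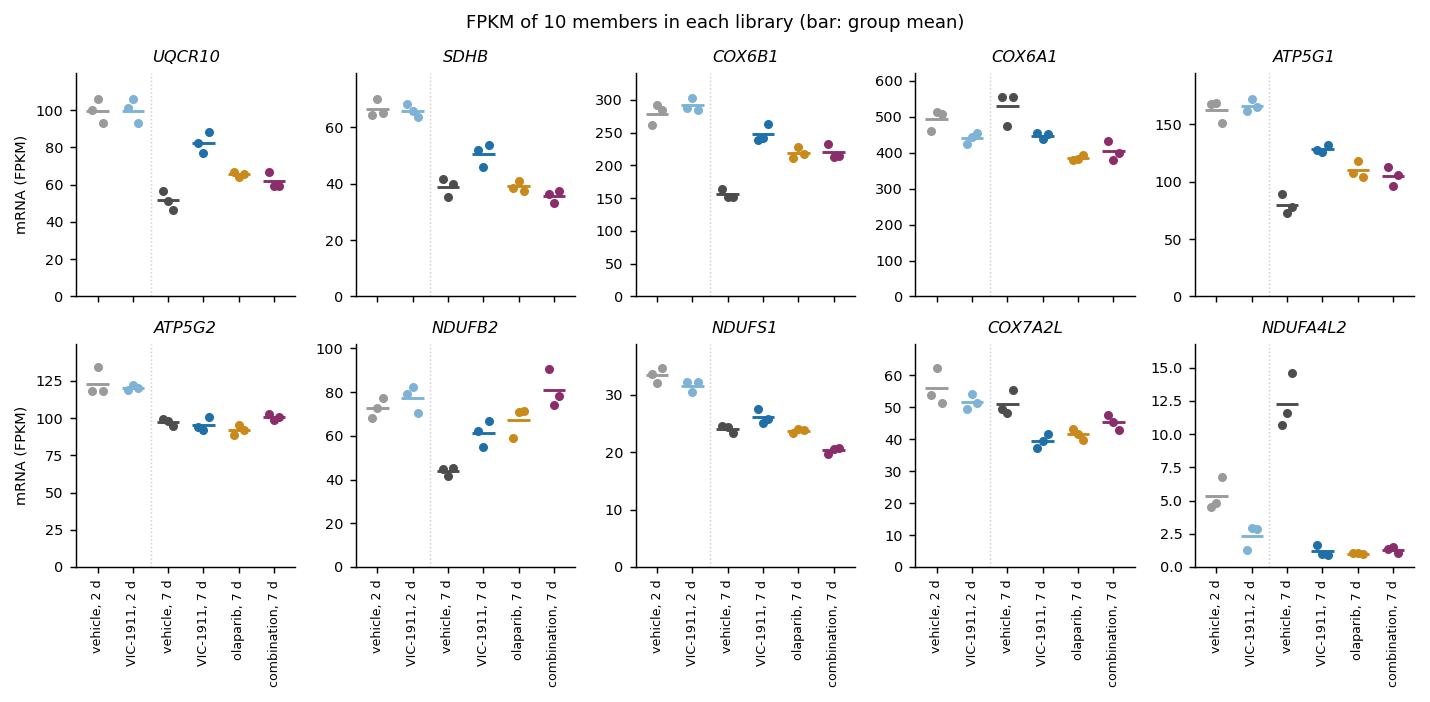
FPKM of 10 members in each of the 18 libraries, 1 panel per gene and 1 point per library, grouped by treatment and time, with the mean as a line. UQCR10, SDHB, COX6B1 and ATP5G1 are higher with VIC-1911 than with vehicle at 7 days, COX6A1, COX7A2L and NDUFA4L2 are lower, and ATP5G2 overlaps.

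The VIC-1911 effect was called more positive at 7 days than at 2 days for 35 of 83 members and more negative for 3, in a test of the difference itself on all 12 libraries, where 14.6% of 13828 genes were called higher and 14.2% lower. The subunits had a median difference of 0.20, with -0.01 over all tested genes. The difference was 0.62 ± 0.09 for UQCR10 (adjusted p = 4.7e-07), 0.57 ± 0.08 for COX6B1 (adjusted p = 3.3e-08) and 0.55 ± 0.07 for ATP5G3 (adjusted p = 1.1e-08). By complex, 14 subunits of complex I were called higher, 3 of complex II, 5 of complex III, 3 of complex IV and 10 of complex V. The complex I count was 6 without vehicle replicate 2 of 2 days, 8 without VIC-1911 replicate 3 of 2 days and 7 without VIC-1911 replicate 3 of 7 days. The 3 members called lower were NDUFA13 (-0.25 ± 0.08, adjusted p = 0.0127), NDUFA4L2 (-2.23 ± 0.36) and COX7A2L (-0.26 ± 0.10, adjusted p = 0.0411). NDUFA13 was not called without vehicle replicate 1 of 2 days (-0.21) or by limma (-0.18). COX7A2L was not called by DESeq2 (-0.26) or without any one of 8 libraries (-0.26 to -0.18).

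These differences stand beside a lower vehicle level at 7 days. In FPKM, 67 of 75 subunits had all 7-day vehicle libraries below all 2-day vehicle libraries and 1 had them above, where 34.0% of all genes were below and 31.3% above. The median log2 ratio of vehicle at 7 days over vehicle at 2 days was -0.48 for the subunits and -0.02 for all genes, and it ran from -0.67 in complexes III and V to -0.38 in complex IV. SDHD had 72.1, 72.6 and 65.4 FPKM in the vehicle libraries of 2 days, which is above all its 7-day libraries. VIC-1911 at 7 days was still below vehicle at 2 days, with a median log2 ratio of -0.22. The tables of the 2 time points were normalized separately, and their libraries carry separate ranges of numbers. Time and library number range cannot be told apart, and the vehicle levels of the 2 times were not tested against each other. The 2-day FPKM values were not computed from exactly the deposited counts, and the reads behind them exceeded those counts by a median log2 ratio of 0.06 for subunits and 0.08 for all genes.

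Olaparib alone for 7 days was next set against vehicle. Of 84 members 37 rose and 10 fell, where 28.1% of all tested genes rose and 25.9% fell. Of the 76 subunits 37 rose and 7 fell, and the median was 0.13, with 0.01 over all genes. FPKM values did not overlap with vehicle for 41 subunits that were higher and 8 that were lower, with 31.9% and 26.9% over all genes. By complex, 14 subunits of complex I rose and 5 fell, 3 of complex II rose, 8 of complex III rose, 3 of complex IV rose and 2 fell, and 9 of complex V rose. The medians were 0.10, 0.21, 0.20, -0.01 and 0.21 in this order, and that of complex IV lay between -0.02 and 0.03 across the scalings. The count for complex III was 5 without olaparib replicate 2, vehicle replicate 2 or vehicle replicate 3, and also by DESeq2. Without olaparib replicate 1, the library that stands apart, 35 members rose and 7 fell, with a median of 0.14, and complex I had 3 subunits lower.

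Among the subunits that rose with olaparib, ATP5G3 had 44.0, 46.7 and 44.5 FPKM, all above its vehicle libraries (0.48 ± 0.05, adjusted p = 4.2e-09). ATP5J2 (now ATP5MF), a membrane subunit of the ATP synthase, went from 63.0, 54.9 and 58.8 to 87.5, 92.0 and 91.0 FPKM (0.61 ± 0.07, adjusted p = 3e-08). NDUFB2 went from 44.9, 41.5 and 45.1 to 59.2, 70.7 and 71.5 FPKM (0.64 ± 0.08, adjusted p = 2.1e-07), and its groups also did not overlap. COX6B1 rose by 0.47 ± 0.05 (adjusted p = 7.1e-09), NDUFS5 by 0.48 ± 0.05 (adjusted p = 1.1e-08) and NDUFB4 by 0.46 ± 0.05 (adjusted p = 3.4e-08).

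Of the 7 subunits that fell with olaparib, COX6A1 had the smallest adjusted p. It had 378, 382 and 392 FPKM, all below the vehicle libraries, and fell by 0.47 ± 0.05 on the log2 scale (adjusted p = 9.1e-09). NDUFB9 went from 226, 192 and 212 to 165, 162 and 176 FPKM (-0.34 ± 0.06, adjusted p = 7.6e-06). COX5B, a zinc-binding subunit, went from 238, 213 and 227 to 195, 193 and 194 FPKM (-0.24 ± 0.06, adjusted p = 0.00063). In each of these genes the groups were apart. NDUFA13 (-0.26 ± 0.06, adjusted p = 0.00038) and NDUFA9 (-0.19 ± 0.06, adjusted p = 0.00687) fell as well. In complex II SDHA (0.33), SDHD (0.24) and SDHC (0.17, adjusted p = 0.0109) rose, but SDHC was not called without vehicle replicate 3 (0.10). SDHB, with 38.4, 41.0 and 37.5 FPKM, overlapped with vehicle and was not called.

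The combination was compared first with vehicle. Of 84 members 40 rose and 9 fell, where 28.6% of all tested genes rose and 28.0% fell. Of the subunits 39 rose and 7 fell, with a median of 0.17 and 0.00 over all genes. FPKM values did not overlap for 36 subunits that were higher and 6 that were lower, with 30.1% and 29.1% over all genes. In complex I 18 subunits rose and 5 fell, in complex II 2 rose, in complex III 7 rose, in complex IV 3 rose and 2 fell, and in complex V 9 rose. The 3 comparisons with vehicle at 7 days use the same vehicle libraries, so their counts are not independent of each other.

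NDUFB2 (chr7:140696708-140706643) had the largest rise of any subunit in a comparison with vehicle. Its combination libraries held 90.4, 74.2 and 78.1 FPKM, above all vehicle libraries, and it rose by 0.90 ± 0.08 (adjusted p = 1.2e-10). An antisense transcript, NDUFB2-AS1, overlaps it at 0.922 to 1.32 FPKM in these libraries, and the strand setting of the counting is not given in the sources used here. ATP5J2 had 106, 90.5 and 95 FPKM (0.73 ± 0.07, adjusted p = 4.4e-10) and NDUFB4 had 202, 177 and 187 FPKM against 134, 116 and 114 in vehicle (0.63 ± 0.05, adjusted p = 3.8e-11), both without overlap. NDUFS5 rose by 0.60 ± 0.05 (adjusted p = 6.5e-11) and ATP5G3 by 0.54 ± 0.05 (adjusted p = 2.6e-10).

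The subunits that fell with the combination included NDUFS1, the largest subunit of complex I and the carrier of several of its iron-sulfur clusters. It had 24.6, 24.4 and 23.3 FPKM in vehicle and 19.6, 20.6 and 20.7 in the combination, without overlap, and fell by 0.26 ± 0.05 on the log2 scale (adjusted p = 6.2e-05). COX6A1 had 432, 379 and 400 FPKM (-0.39 ± 0.05, adjusted p = 2.4e-07) and COX5B had 207, 176 and 192 FPKM (-0.23 ± 0.05, adjusted p = 0.00054). NDUFB9 (-0.29 ± 0.05, adjusted p = 5.2e-05), NDUFB7 (-0.26 ± 0.07, adjusted p = 0.0028) and NDUFC1 (-0.21 ± 0.06, adjusted p = 0.00412) were lower too. NDUFB10 was at the threshold (-0.12 ± 0.05, adjusted p = 0.0488) with overlapping groups, and it was not called by DESeq2, under upper-quartile normalization (-0.10), or without combination replicate 2 (-0.08) or 3 (-0.10) or vehicle replicate 1 (-0.11) or 2 (-0.13). Complex I had 8 subunits lower without combination replicate 1 and also with the offset on gene length. Complex IV had 5 subunits higher without combination replicate 2.

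With the combination the calls differed between the complex II genes, as they did with olaparib, and the difference between these genes was not tested. SDHA, with 60.4, 53.4 and 57.2 FPKM, rose by 0.25 (adjusted p = 4e-05) and SDHD, with 43.1, 42.1 and 42 FPKM, by 0.19 (adjusted p = 0.00204). SDHB had 36.2, 33.1 and 37.4 FPKM, overlapping with vehicle, and was not called (-0.12 ± 0.07, adjusted p = 0.135), but it was called lower without vehicle replicate 2 (-0.21) and with an offset on gene length (-0.16). The summed level of complex II was 164.9 ± 6.28 FPKM, 8.98% above vehicle. Complex IV, at 2759 ± 181 FPKM, overlapped with vehicle, and complex III was 21.0% and complex V 13.7% above it without overlap.

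**Figure D4:**
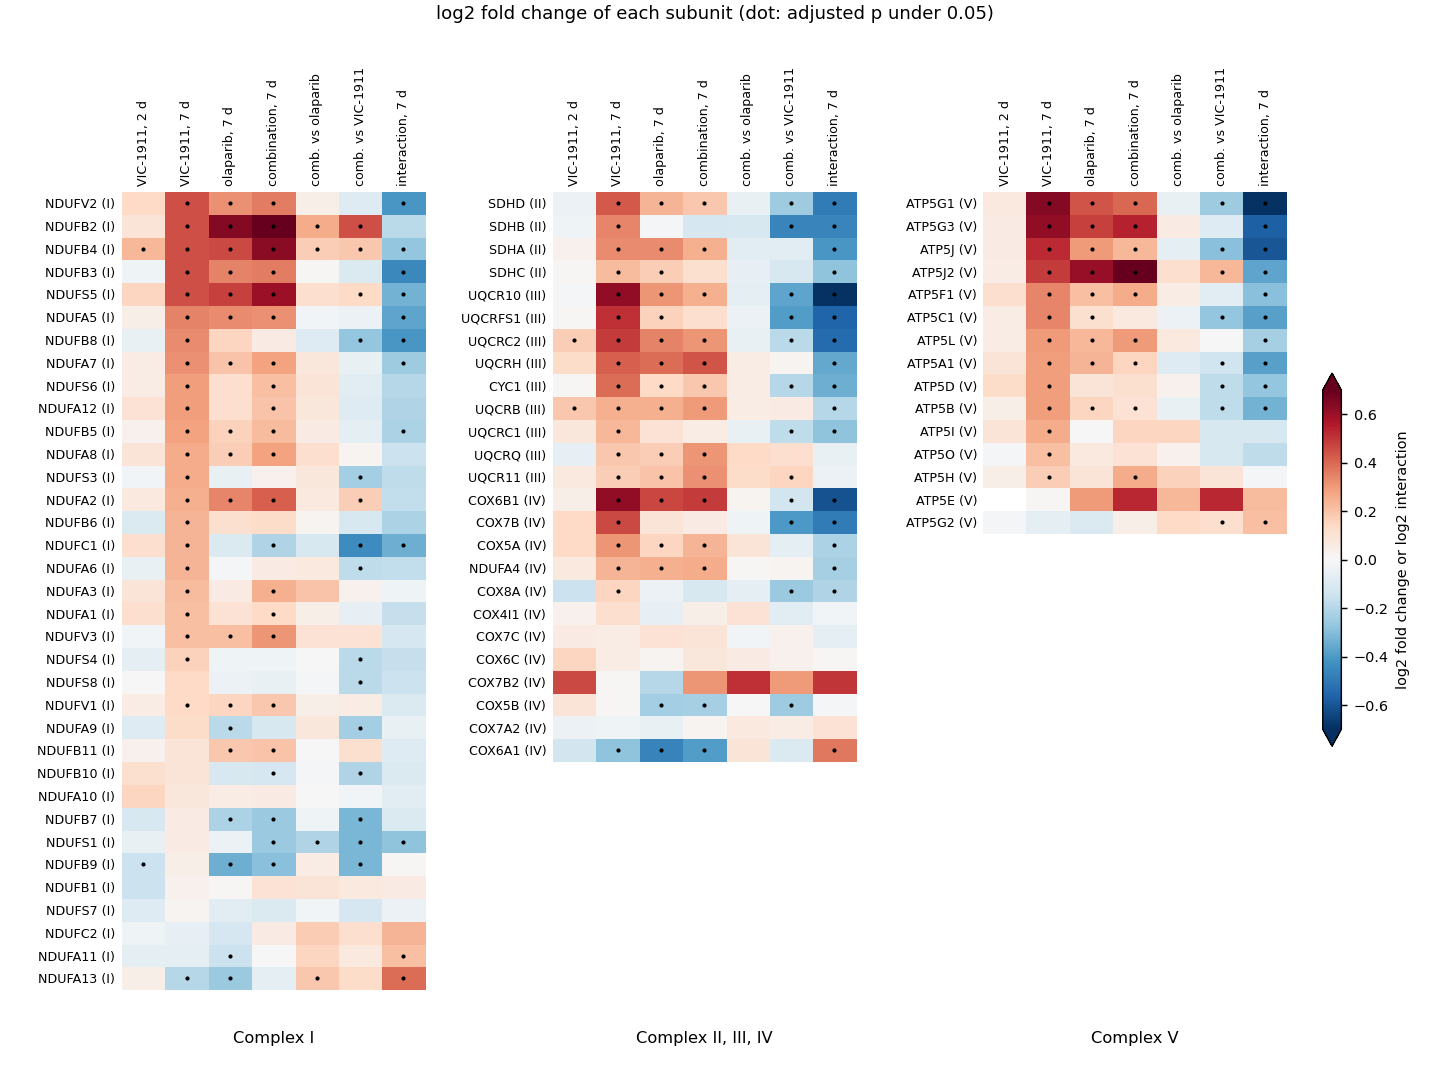
Log2 fold change (edgeR) of the tested subunits, with 1 of complex I left out, in 7 comparisons, with rows grouped by complex and sorted within it by the value for VIC-1911 at 7 days. The color scale is capped at ±0.7, and ATP5E is blank at 2 days because it was not tested. The columns against vehicle at 7 days are mostly positive, and the columns of the combination against VIC-1911 and of the interaction are mostly negative.

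The combination was then compared with olaparib alone, where few of all tested genes were called. Of 84 members, 3 (3.57%) were higher and 1 (1.19%) lower in the combination than with olaparib. Among all tested genes 4.55% were higher and 6.95% lower. The subunit median was 0.04, with 0.00 over all genes. The higher ones were NDUFB2 (0.26 ± 0.08, adjusted p = 0.0254), NDUFA13 (0.19 ± 0.06, adjusted p = 0.0272, groups overlapping) and NDUFB4 (0.17 ± 0.05, adjusted p = 0.0338). The lower one was NDUFS1, whose olaparib libraries at 23.3, 24.0 and 23.8 FPKM were all above the combination libraries (-0.21 ± 0.05, adjusted p = 0.00418). None of the 3 rises was called by limma or without olaparib replicate 1, when NDUFB2 had 0.21, NDUFA13 0.15 and NDUFB4 0.16, nor without combination replicate 1, when they had 0.17, 0.12 and 0.12. NDUFB2 was also not called without olaparib replicate 2 (0.28), NDUFA13 without olaparib replicate 3 (0.18) or with the offset on gene length (0.13), and NDUFB4 without combination replicate 3 (0.18) or olaparib replicate 2 (0.17) or 3 (0.18). Members called higher numbered 0 without combination replicate 1 or olaparib replicate 1, 1 without olaparib replicate 3 and 11 without combination replicate 2, and the 1 called lower was found in each of these fits. FPKM values of 6 subunits were higher and of 6 lower in all combination libraries than in all olaparib libraries, with 11.1% and 16.2% over all genes. Summed FPKM of complexes I, III, IV and V overlapped between combination and olaparib, and that of complex II was lower by -6.19% without overlap.

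Against VIC-1911 alone, the combination had 9 members higher and 29 lower, where 20.7% of all tested genes were higher and 22.2% lower. Of the subunits 7 were higher and 29 lower, with a median of -0.09 and 0.01 over all genes. FPKM values did not overlap for 1 subunit that was higher and 39 that were lower, with 20.8% and 29.8% over all genes. The lower ones by the test were 12 of complex I, 2 of complex II, 5 of complex III, 4 of complex IV and 6 of complex V. SDHB had 51.9, 45.9 and 53.8 FPKM with VIC-1911 and 36.2, 33.1 and 37.4 with the combination, and was lower by -0.46 ± 0.07 (adjusted p = 1.7e-06). COX7B, an X-linked subunit, had 209, 189 and 213 FPKM with VIC-1911 and 155, 149 and 144 with the combination (-0.40 ± 0.05, adjusted p = 5e-07). NDUFC1 went from 34.5, 34.7 and 35.7 to 26.5, 23.6 and 24.8 FPKM (-0.44 ± 0.06, adjusted p = 4e-07), and none of these 3 overlapped between the groups. NDUFC1 overlaps NAA15 in the genome, which had log2 fold changes against vehicle of 0.63 for VIC-1911, 0.42 for olaparib and 0.21 for the combination, where NDUFC1 had 0.24, -0.10 and -0.21. The part of the overlap in the NDUFC1 values was not tested. Members called higher numbered 5 without combination replicate 1, VIC-1911 replicate 1 or VIC-1911 replicate 2. The groups of this comparison lie in different ranges of library numbers.

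The interaction asks whether the effect of VIC-1911 is the same with olaparib as without it, and is the log2 change from olaparib to the combination minus that from vehicle to VIC-1911. It was called below 0 for 37 of 84 members and above 0 for 6, where 22.9% of all tested genes were called below and 21.0% above. All 37 called below 0 were subunits, and the subunit median was -0.20, with 0.01 over all tested genes. By complex, 11 subunits of complex I, all 4 of complex II, 7 of complex III, 5 of complex IV and 10 of complex V were called below 0, with medians over the tested subunits of -0.17, -0.43, -0.34, -0.04 and -0.29. Both parts of this difference lie within a range of library numbers.

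UQCR10 shows the pattern, with 56.9, 51.3 and 46.7 FPKM in vehicle and 82.3, 77.0 and 88.3 with VIC-1911, but 67.0, 64.4 and 65.9 with olaparib and 67.1, 59.4 and 59.1 with the combination. Its interaction was -0.69 ± 0.09. COX6B1 had 211, 228 and 217 FPKM with olaparib and 233, 212 and 215 with the combination, which overlap, and an interaction of -0.61 ± 0.07 (adjusted p = 5.5e-08). UQCRC2 had 96.0, 99.2 and 97.5 FPKM with olaparib and 94.4, 93.4 and 93.0 with the combination, and an interaction of -0.54 ± 0.06 (adjusted p = 5e-08). ATP5G1 had an interaction of -0.69 ± 0.09. In complex II the values were -0.49 for SDHD, -0.46 for SDHB, -0.41 for SDHA and -0.28 for SDHC.

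The 4 subunits called above 0 were NDUFA13 (0.39 ± 0.08), COX6A1 (0.37 ± 0.07), ATP5G2 (0.21 ± 0.07, adjusted p = 0.00974) and NDUFA11 (0.21 ± 0.07, adjusted p = 0.0187), the last named after its value was seen. NDUFA13 and COX6A1 are the subunits that fell with VIC-1911 alone, and ATP5G2 was not called there. NDUFA11 was not called by limma on the FPKM values (0.15 and 0.16). Complex IV had 3 subunits called below 0 without combination replicate 2, olaparib replicate 2 or 3, vehicle replicate 2 or 3, or VIC-1911 replicate 3. Without olaparib replicate 1, 38 members were called below 0 and 6 above.

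**Figure D5:**
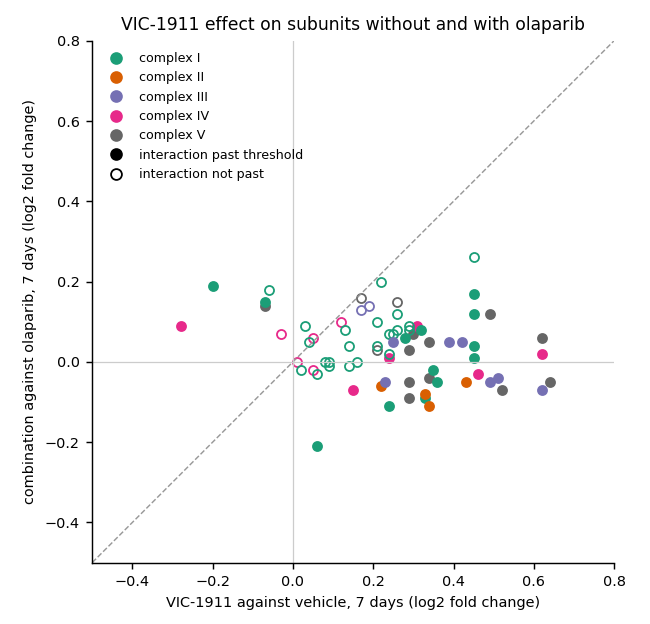
Log2 fold change of VIC-1911 against vehicle (horizontal axis) and of the combination against olaparib (vertical axis) at 7 days for each tested subunit, colored by complex, filled where the interaction had an adjusted p under 0.05 and open otherwise, with the diagonal of equal effects dashed. ATP5E and COX7B2, which had few counts, are left out. Most points lie right of 0 and below the diagonal, near 0 on the vertical axis.

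Of the 11 members that are not subunits, NDUFA4L2 (now COXFA4L2, chr12:57234903-57240762) moved the most. It is a hypoxia-inducible relative of NDUFA4. It had 10.7, 11.6 and 14.6 FPKM in the 7-day vehicle libraries, 1.66, 0.943 and 0.928 with VIC-1911, 1.03, 1.06 and 0.95 with olaparib, and 1.39, 1.5 and 1.02 with the combination. All treated libraries were below all vehicle libraries. It fell by 3.45 ± 0.18 (adjusted p = 1.3e-15), 3.59 ± 0.19 (adjusted p = 6e-16) and 3.22 ± 0.17 (adjusted p = 8.7e-16) on the log2 scale, and no subunit had a fold change of this size. It was at a like low level with either drug alone and with both, and its interaction was 3.82 ± 0.34 (adjusted p = 1.6e-10). At 2 days it had 4.51, 4.81 and 6.76 FPKM with vehicle and 1.25, 2.92 and 2.87 with VIC-1911, and it fell by 1.23 ± 0.26 (adjusted p = 0.00073). It overlaps SHMT2, the mitochondrial serine hydroxymethyltransferase, which had 178 to 190 FPKM in the 7-day vehicle libraries and 72.4 to 75.4 with VIC-1911 and log2 fold changes against vehicle of -1.36, -1.40 and -1.47 with VIC-1911, olaparib and the combination. Whether reads of SHMT2 were counted for NDUFA4L2 was not tested.

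COX7A2L, which joins complexes III and IV into supercomplexes, fell in all 3 comparisons with vehicle at 7 days. It had 49.6, 48.2 and 55.4 FPKM in vehicle and 37.4, 39.3 and 41.7 with VIC-1911, and fell by 0.40 ± 0.06 on the log2 scale (adjusted p = 3.6e-06). With olaparib it had 43.2, 41.7 and 39.7 FPKM (-0.31 ± 0.06, adjusted p = 9.7e-05), and neither group overlapped with vehicle. With the combination it had 47.5, 45.5 and 42.9 FPKM (-0.16 ± 0.06, adjusted p = 0.0245), and it was not called without combination replicate 3 or vehicle replicate 3 (-0.12 each) or with no scaling beyond library size (-0.11). Its interaction was 0.55 ± 0.09.

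ATP5S (now DMAC2L) was higher in the combination than with VIC-1911 (0.34 ± 0.09, adjusted p = 0.00377), without overlap. Against vehicle it was called higher with the combination (0.23 ± 0.09, adjusted p = 0.0301), but not without combination replicate 2 or 3 (0.22 each), without any vehicle replicate (0.19 to 0.24) or by DESeq2. ATP5SL (now DMAC2), an assembly factor of complex I, was called lower with olaparib (-0.25 ± 0.10, adjusted p = 0.0341), but not without olaparib replicate 1 (-0.22) or 2 (-0.16), without vehicle replicate 2 (-0.23) or by DESeq2 (-0.27). NDUFB2-AS1 was called higher with VIC-1911 at 7 days (0.66 ± 0.24, adjusted p = 0.0207), but not without vehicle replicate 2 (0.67) or VIC-1911 replicate 3 (0.54) or by DESeq2. UQCRHL, NDUFA6-AS1 and NDUFV2-AS1 were not called in any comparison in which they were tested. The read-through transcripts ATP5J2-PTCD1 and NDUFC2-KCTD14 were listed at 0 FPKM, and ATP5L2 (now ATP5MGL) had at most 7 counts in a library.

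The other mitochondrial gene lists are given by their counts at 7 days, to be read against the shares of all tested genes that rose and fell, which were 26.6% and 25.8% with VIC-1911, 28.1% and 25.9% with olaparib, and 28.6% and 28.0% with the combination. Their likeness to the subunits was not tested. Of 76 mitochondrial ribosomal proteins, 55 rose and 1 fell with VIC-1911, 44 rose and 4 fell with olaparib, 44 rose and 6 fell with the combination, and 47 were called below 0 and 1 above in the interaction, where all genes had 22.9% and 21.0%. MRPS12 (0.71 ± 0.07, adjusted p = 5.4e-10), MRPS25 (0.47 ± 0.05, adjusted p = 7e-09) and MRPS17 (0.78 ± 0.09, adjusted p = 7.6e-09) had the smallest adjusted p with VIC-1911. Of 18 genes of the citric acid cycle and pyruvate entry, 15 rose and 0 fell with VIC-1911, 12 rose and 1 fell with olaparib, and 9 rose and 3 fell with the combination. DLAT, a component of pyruvate dehydrogenase, rose by 0.65 ± 0.05 (adjusted p = 3.1e-11) and IDH3A, of the NAD-dependent isocitrate dehydrogenase, by 0.52 ± 0.06 (adjusted p = 6.4e-09) with VIC-1911. Of 23 import genes, 16 rose and 3 fell with VIC-1911, and TOMM5 (0.66 ± 0.07, adjusted p = 1.9e-09) had the smallest adjusted p among those that rose.

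Among the assembly factors, 7 of 14 for complex I rose with VIC-1911 and 0 fell, 2 of 4 for complex II rose, 1 of 6 for complex III rose and 1 fell, 11 of 23 for complex IV rose and 2 fell, and 2 of 3 for complex V rose, where 26.6% of all tested genes rose and 25.8% fell. FOXRED1 of complex I rose by 0.49 ± 0.06 (adjusted p = 1.3e-07). COA7 (0.59 ± 0.07, adjusted p = 2.5e-08) and the copper chaperone COX17 (0.57 ± 0.08, adjusted p = 6.1e-07), both of complex IV, rose as well. With olaparib 6, 1, 3, 8 and 1 of these factors rose for complexes I to V and 1, 1, 1, 2 and 0 fell, and with the combination 6, 1, 3, 10 and 1 rose and 1, 0, 1, 2 and 0 fell. Several of these shares are near those of all genes, at 28.1% and 28.6% higher.

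Of 12 regulators of mitochondrial gene expression, 6 rose and 1 fell with VIC-1911, where 26.6% of all tested genes rose and 25.8% fell. Among those that rose were the coactivators PPRC1 (0.36 ± 0.05, adjusted p = 2.1e-06) and PPARGC1B (0.53 ± 0.09, adjusted p = 7.7e-06) and TFAM, which packages mitochondrial DNA (0.39 ± 0.06, adjusted p = 5.4e-06). With olaparib 7 of these regulators rose and 2 fell, where 28.1% of all tested genes rose and 25.9% fell. With the combination 6 rose and 2 fell, where 28.6% of all tested genes rose and 28.0% fell. The transcript of NRF1 was not called with VIC-1911 (-0.20, adjusted p = 0.0684), and it fell with olaparib (-0.62 ± 0.10, adjusted p = 3e-06) and with the combination (-0.67 ± 0.09, adjusted p = 5.1e-07). Of 9 luminal markers, 1 rose and 5 fell with VIC-1911, where 26.6% of all tested genes rose and 25.8% fell. KLK3 had log2 fold changes of -0.61, -0.71 and -0.69 with VIC-1911, olaparib and the combination. The part of the luminal markers in the subunit values was not tested.

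Subunit genes are short, with a median length of 1232 bp against 4133 bp for all genes tested at 7 days, so the values were also read within classes of length. With VIC-1911 at 7 days the subunit median was 0.17 for 27 subunits under 1000 bp, 0.26 for 25 of 1000 to 2000 bp, 0.26 for 12 of 2000 to 3000 bp, 0.22 for 8 of 3000 to 5000 bp and 0.24 for 4 longer ones. The medians of the other genes in these classes were -0.03, 0.01, 0.00, 0.01 and -0.03. In these classes 16, 19, 11, 5 and 3 subunits were called higher, where 18.2, 28.1, 26.6, 28.1 and 25.4% of the other genes were. The 2 subunits called lower are under 1000 bp, where 14.6% of the other genes were called lower. For the combination against vehicle the subunit medians in these classes were 0.15, 0.12, 0.24, 0.13 and 0.18. The other genes had 0.07, 0.04, 0.04, 0.02 and -0.04. Against olaparib the subunits had 0.08, 0.03, 0.03, 0.00 and 0.03, and the other genes 0.07, 0.05, 0.03, 0.01 and -0.04. With the offset on gene length the member medians of these comparisons were 0.11 and 0.01, and 0.15 and 0.05 without it.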

How the data were processed

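After trimming with Trimmomatic, the authors aligned reads by STAR (2.6.0 in the submitters' processing notes) on GRCh38 and deposited raw counts per gene and, from an in-house script, FPKM values, with 1 table of each per time point. Strand setting and annotation are not given in the sources used here. Counts were fitted here in R 4.3.3 with edgeR 4.0.16 (TMM, quasi-likelihood test) per time point, keeping genes that reached 10 counts in 3 or more libraries, with Benjamini-Hochberg adjustment over all tested genes and a threshold of 0.05. The time difference was fitted to the vehicle and VIC-1911 libraries of both times. The 7-day biological coefficient of variation was 4.43%. Alternatives used limma 3.58.1 on log2(FPKM + 0.1) or log2(FPKM + 1), DESeq2 1.42.0, other scalings and filters, a loess offset on gene length, a replicate block and each library left out. The code was tested on simulated data. Levels are the deposited FPKM.

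The members and lists were chosen with earlier results of these data known. Named were, by smallest adjusted p against vehicle, 5 subunits that rose and 5 that fell, all SDH and c subunit genes, the highest member of each complex, tissue-restricted isoforms, non-subunits, the 3 members with the smallest adjusted p in each other comparison, and at most 3 called genes from every list. Other subunits were given values in a second comparison where one of these rules had named them. NDUFA4 was counted in complex IV. Coordinates and promoters are those of RefSeq on GRCh38.p14. The values of 1 subunit and 1 marker that these rules name are not reported here.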

Additional observations from a re-analysis of the deposited data

Results flagged for a closer look

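The effect of VIC-1911 differed with and without olaparib, by the test of the interaction, with 37 members called below 0 and 6 above. The named members were COX6B1 (-0.61), UQCRC2 (-0.54) and NDUFA4L2 (3.82), as log2 differences. NDUFA4L2 was near 1 FPKM with either drug and with both. The ranges of library numbers of the olaparib groups and the others differ, although each part of the difference lies within a range.

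The effect of VIC-1911 differed between 7 days and 2 days, again by the test of the difference, with 35 members called above 0 and 3 below. UQCR10 (0.62), COX6B1 (0.57) and ATP5G3 (0.55) had the smallest adjusted p among the subunits. With 3 libraries in a group, no test for an outlying library within a group was made.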

How the results depend on the processing

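With VIC-1911, olaparib and the combination against vehicle at 7 days, the number of members called higher stayed within 1.5 times its value under every alternative run. Leaving out 1 library gave 45 to 57 higher and 4 lower for VIC-1911, 28 to 37 higher and 7 to 12 lower for olaparib, and 33 to 46 higher and 7 to 13 lower for the combination. Of the members called higher, 45 of 55, 26 of 37 and 31 of 40 were called in every one of these fits. For the interaction such fits gave 31 to 44 called below 0 and 6 to 7 above, and 30 of 37 were called in all of them.

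Other counts moved by over 1.5 times, and the cause was not tested. At 2 days the 4 members called higher became 8 with no filter, 9 with the offset on gene length, 9 with the replicate block and 8 with block and offset. The 2 called lower became 4 with upper-quartile normalization, no scaling, the offset, or block and offset, and 1 with no filter or DESeq2. Leaving out 1 library gave 1 to 15 higher and 1 to 3 lower, with 1 lower without vehicle replicate 3 or any VIC-1911 replicate. For the combination against vehicle the 9 members called lower became 14 with the offset, and 14 with block and offset. For the combination against olaparib the 3 called higher became 6 with RLE size factors, 7 with upper-quartile normalization, no scaling or the FPKM filter, and 0 with limma at both pseudocounts, and 0 to 11 with 1 library left out. The 1 called lower became 2 with block and offset. For the combination against VIC-1911 the 9 called higher became 4 with limma at both pseudocounts, and 5 to 11 with 1 library left out. For the time difference the 3 called lower became 1 with limma at both pseudocounts, and 1 to 4 with 1 library left out, with 1 without vehicle replicate 1 of 2 days. Its median over the members was 0.17, and 0.25 and 0.24 with limma at the smaller and the larger pseudocount, and 0.14 to 0.24 with 1 library left out.

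Same-numbered libraries of different groups had correlations of -0.0355 to 0.111 in their deviations. Libraries with different numbers had -0.0833 to 0.0982. The same-numbered libraries were taken to share a number only, and whether they were paired was not tested. With the replicate block, members called higher and lower were 57 and 4 for VIC-1911 at 7 days, 39 and 10 for olaparib, and 40 and 9 for the combination. Over all alternatives, the named genes lost a call 81 times, gained one 3 times and changed direction 0 times. At 2 days the vehicle libraries held 3245273 to 4545256 counts, and the effect of depth on the calls was not tested.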
